A study of Drosophila melanogaster with 6 samples.

Results

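The 205 sites described here are those of the Jig ChIP-seq peak list whose summit, the position of highest signal, lay inside the coding sequence of a protein-coding transcript and more than 1000 bp from every annotated transcription start site (TSS). They were 205 of 1938 sites in the list, and of 1688 in the parts of arms 2L, 2R, 3L, 3R and X that were kept, with the mitochondrial genome, chromosomes 4 and Y and the sequence near the centromeres left out. Chromatin was taken from whole, pooled larvae early in the last larval instar and precipitated with an antibody against GFP. JIG-GFP larvae (3 samples) express Jig, the product of CG14850, with GFP at its C-terminus from a transgene under the inducible UASt promoter, which needs a GAL4 driver. The driver used for these larvae is not given in the sources used here. Wild-type larvae (3 samples) carry no GFP, so that the antibody recovers background from them. Their strain is labelled wildtype and their samples are titled YW. The authors called sites once, on the 3 JIG-GFP libraries pooled against the 3 wild-type libraries pooled. Fragments numbered 42962439 in the JIG-GFP pool, against 42368878 in wild type. The depth of each sample is unknown, no value per sample can be given, and the q-values hold no spread between samples. A difference in DNA copies between the JIG-GFP and wild-type stocks raises or lowers the fold enrichment as binding would, and from this list they cannot be told apart.

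Jig is a small protein of nuclei and mitochondria, and the study examined it together with CrebA, a basic leucine zipper factor of secretory genes. Factors of that class bind short words around an ACGT core. Coding exons of Drosophila are richer in G and C than the introns around them, mainly at the last base of each codon. Many genes of structural and secreted proteins also contain tandem repeats, in which the same peptide is encoded many times in a row.

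Of the 10 coding sites of highest fold enrichment, 6 lay in such tandem repeats. Not every repeated site was strong, and that of Mur29B ranked 193 of 205 by fold. Shown here, because the repeat can be read in them, are 6 windows from 5 genes with such repeats. Each is 120 bases of the sense strand (RefSeq sequence of Release 6, the assembly called dm6 or BDGP6), close to or over the summit. Capitals mark a base identical to the base 1 repeat unit upstream. The unit is 228 bp in Ubi-p63E, 306 bp in dpy, 48 bp in Sgs1, 213 bp at both sls sites and 96 bp in Mur29B.
Ubi-p63E, chr3L:3900483-3900602, minus strand: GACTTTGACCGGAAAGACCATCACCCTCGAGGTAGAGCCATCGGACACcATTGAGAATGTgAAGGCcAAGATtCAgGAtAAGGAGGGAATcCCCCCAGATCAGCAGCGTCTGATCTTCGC
dpy, chr2L:4536995-4537114, minus strand: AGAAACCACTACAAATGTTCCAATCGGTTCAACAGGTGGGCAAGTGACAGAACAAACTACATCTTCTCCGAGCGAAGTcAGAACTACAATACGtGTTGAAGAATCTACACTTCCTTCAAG
Sgs1, chr2L:4940581-4940700, plus strand: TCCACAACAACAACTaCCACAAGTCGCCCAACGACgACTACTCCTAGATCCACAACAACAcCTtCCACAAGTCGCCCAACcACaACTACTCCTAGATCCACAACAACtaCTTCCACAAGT
sls, chr3L:2065578-2065697, minus strand: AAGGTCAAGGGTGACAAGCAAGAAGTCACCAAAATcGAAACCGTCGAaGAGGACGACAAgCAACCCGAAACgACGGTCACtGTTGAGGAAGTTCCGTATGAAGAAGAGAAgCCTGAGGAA
sls, chr3L:2069396-2069515, minus strand: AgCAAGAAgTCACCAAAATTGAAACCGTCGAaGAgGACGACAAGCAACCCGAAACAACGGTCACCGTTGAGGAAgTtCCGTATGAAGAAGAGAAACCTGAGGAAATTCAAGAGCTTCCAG
Mur29B, chr2L:8354519-8354638, plus strand: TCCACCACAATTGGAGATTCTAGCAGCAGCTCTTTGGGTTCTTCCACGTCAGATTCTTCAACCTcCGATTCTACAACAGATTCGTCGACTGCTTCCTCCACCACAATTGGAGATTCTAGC
Between 93.3% (Sgs1) and 99.2% (Mur29B) of the bases in these windows matched the unit before. Over the 1000 bp around the summit the match was 65.6% in Mur29B, and from 82.1% to 98.2% in the other genes shown. The 48 bp unit of Sgs1, which encodes a secreted glue protein of the salivary gland, can be followed from 1 copy to the next within its line. The first sls line and the second hold nearly the same stretch at different offsets, both sites lying in the same exon.

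The next windows show coding sites without such repeats. CG2233 had the highest fold among them and ry the longest site, and in both lines capitals mark G and C. The Col4a1 line, from the stronger of its sites, lay in the collagen repeat, in which glycine recurs at a regular step, and capitals there mark glycine codons (GGN) in frame, 13 of the 39 whole codons. The kon line is shown because it holds the word CCACGTC, in capitals as its complement GACGTGG, at 4 bp from the summit.
CG2233, chrX:8036337-8036456, minus strand: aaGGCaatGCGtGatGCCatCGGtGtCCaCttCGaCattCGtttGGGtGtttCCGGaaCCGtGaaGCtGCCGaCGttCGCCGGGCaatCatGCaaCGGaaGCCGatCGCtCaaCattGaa
ry, chr3R:13033758-13033877, plus strand: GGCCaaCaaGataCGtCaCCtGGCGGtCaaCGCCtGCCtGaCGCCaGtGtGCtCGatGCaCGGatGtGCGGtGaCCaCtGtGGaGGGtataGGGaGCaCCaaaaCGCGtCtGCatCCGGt
Col4a1, chr2L:5035122-5035241, plus strand: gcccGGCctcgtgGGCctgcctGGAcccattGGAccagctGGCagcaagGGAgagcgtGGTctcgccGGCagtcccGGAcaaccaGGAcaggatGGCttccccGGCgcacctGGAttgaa
kon, chr2L:18494021-18494081, minus strand: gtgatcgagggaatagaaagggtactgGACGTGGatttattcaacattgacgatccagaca
G and C made up 55.0% of the bases of the CG2233 line and 60.8% of those of the ry line.

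At the 205 coding sites the pileup in the authors' list, which counts fragments of the JIG-GFP pool that cover the summit, was 169 in the median, 156 and 187 at the quartiles, and between 135 and 682 throughout. The local wild-type background had a median of 115.5 fragments and ran from 97.3, the lowest value the caller allows, to 351. The authors' fold enrichment, the ratio of pileup to background, had a median of 1.44 (95% interval of the median 1.42 to 1.47) and quartiles of 1.36 and 1.53. Most coding sites were thus weakly enriched, 173 of 205 having a fold under 1.6, and at the median background counting alone gives an SD of 9.31%. A fold of at least 2 was reached by 11 coding sites (5.37%, Wilson 95% interval 3.02% to 9.35%), and by 5.98% of the 1688 kept sites. The −log10 q had a median of 2.93 and ran from 1.31 to 86.0. The median site length was 358 bp, with quartiles of 297 and 492 bp, against 354 bp at the other 1483 kept sites. The median fold at coding sites lay close to that at the other kept sites, 1.46 (1.45 to 1.47), and no test over sites was made. Background was at its lowest value at 20 coding sites (9.76%) and at 342 of the other 1483 (23.1%). The median background was 115.5 fragments at coding sites and 107 at the others, and the median pileup was 169 and 161.

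**Figure D1:**
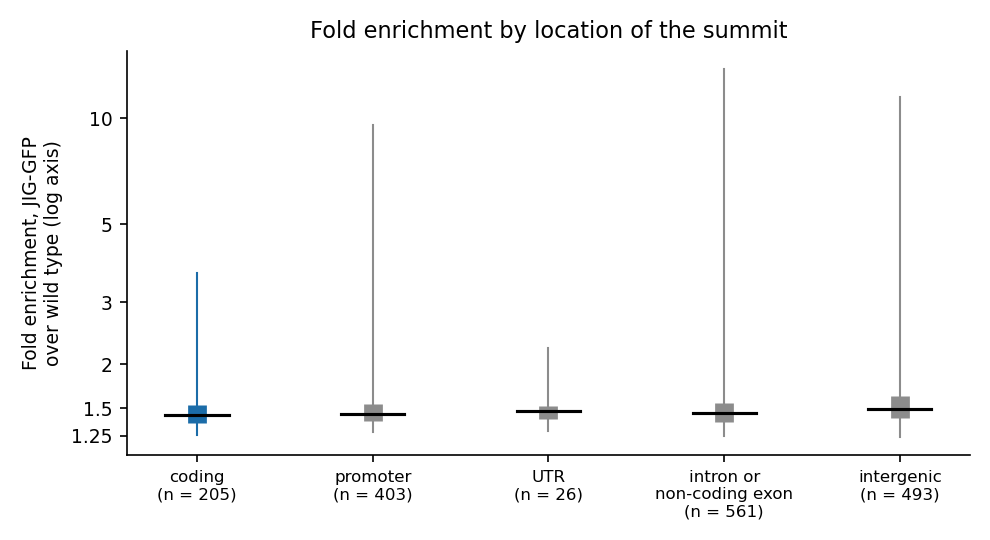
Fold enrichment of JIG-GFP over wild type by location of the summit (log axis): black lines are medians, boxes run from the lower to the upper quartile and thin lines from the lowest to the highest site. The medians lay between 1.44 at the 205 coding sites and 1.49 at the 493 intergenic sites, and the highest coding site reached 3.62, against 13.8 in introns or non-coding exons.

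By location, the median fold was 1.44 at coding sites, 1.45 at 403 promoter sites, 1.47 at 26 promoter-distal UTR sites, 1.45 at 561 sites in introns or non-coding exons and 1.49 at 493 intergenic sites. Another 220 sites had their summit in coding sequence but within 1000 bp of a TSS, and their median fold was 1.45. The limit of 1000 bp fell within a run of similar sites. Just inside it were CG33286 at 1010 bp (fold 1.53), PGRP-LA at 1026 bp (1.89) and Art3 at 1031 bp (1.39), and just outside were Gpat4 at 1000 bp (1.64), Cyp12a5 at 986 bp (1.55) and CG7342 at 982 bp (1.43). Of the coding sites, 81 lay wholly in coding sequence, 108 held at least 1 base of an intron and 36 at least 1 base of a UTR. The median site was coding over 89.03% of its bases. The site in CG34002, with a fold of 1.91, was the 1 coding site that shared bases with an annotated transposon.

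Tandem repeats marked the strongest coding sites. A site was counted as repeated when at least 50% of the bases in the 1000 bp around its summit lay in 16-base words that occurred again in that stretch. This measure was not planned and was chosen after the data were seen. This held for 10 of 205 coding sites (4.88%, Wilson 95% interval 2.67% to 8.75%) and for 1.18% of 45445 coding windows, which are 300 bp windows tiled over the promoter-distal coding sequence outside sites. The share with any repeated word at all was not higher at coding sites. At least 1 such word was found around 16 sites (7.80%, 4.86% to 12.3%) and in 11.1% of windows. The repeated sites had a median fold of 2.16 (n = 10), against 1.43 at the other 195 coding sites, whose highest value was 2.19. They made up 6 of the 10 coding sites of highest fold, 9 of the highest 20, and 6 of the 11 with a fold of at least 2. In each of the 10 the repeat unit was a multiple of 3 bases, so that it repeats whole codons. The unit was least well defined in Muc68Ca and Mur29B, where 63.9% and 65.6% of the bases around the summit matched between neighbouring units. In the others this was 82.1% to 98.3%.

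**Figure D2:**
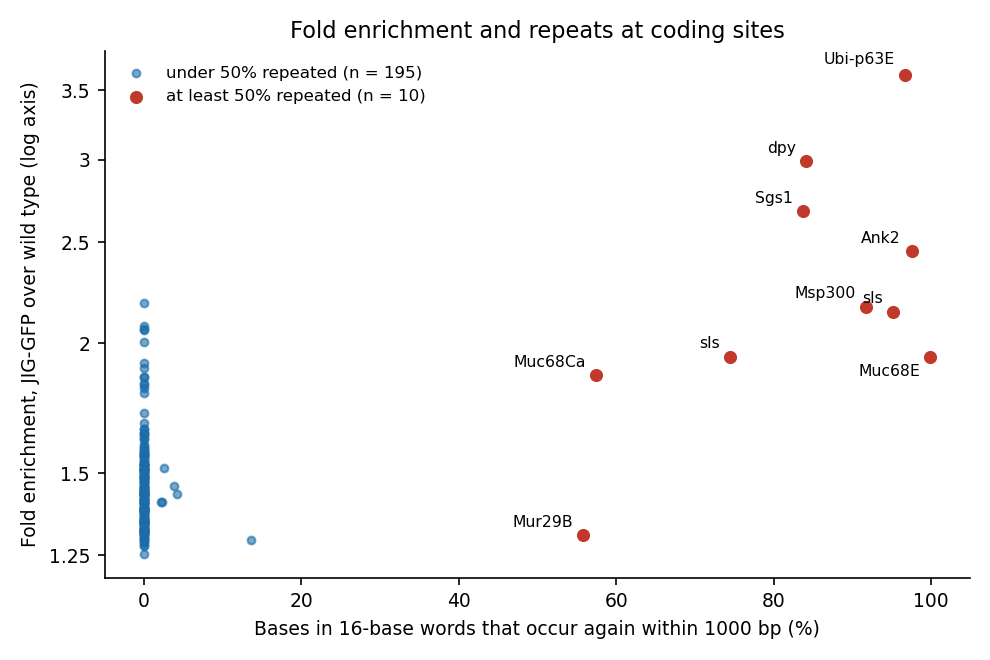
Fold enrichment of JIG-GFP over wild type (log axis) against the share of the 1000 bp around the summit that lies in 16-base words found there again, 1 point for each of the 205 coding sites. The 10 repeated sites (red, named) are 9 with folds from 1.86 to 3.62 and Mur29B at 1.31, while the 195 others (blue) reach 2.19.

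Ubi-p63E, 1 of the polyubiquitin genes, encodes ubiquitin copies head to tail without an intron, and its site had the highest fold and the lowest q of all coding sites. The site ran over 284 bp (chr3L:3900397-3900680) in a coding exon of 2289 bp. It had a pileup of 355 fragments in the JIG-GFP pool against the lowest background the caller allows (97.3). The fold was 3.62 (95% counting interval 3.26 to 4.02, from the Poisson error of the pileup alone) and the −log10 q was 86.0. The unit of 228 bp is 76 codons, and neighbouring units were identical at 97.2% of the bases around the summit.

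Extracellular and secreted proteins made up 5 of the repeated sites. The site of dpy, a giant protein of the extracellular matrix that anchors epidermis to cuticle, lay in coding exon 14 of 81 (chr2L:4536865-4537190). It had a pileup of 293 fragments against a background of 97.3 and a fold of 2.99 (2.66 to 3.35), over a unit of 102 codons. Sgs1 had a site in the last of its 2 coding exons (chr2L:4940503-4940768), with a pileup of 288, a background of 107 and a fold of 2.68 (2.38 to 3.01). Its unit of 16 codons was the shortest of the 10, with 84.3% identity between neighbouring units. The Ubi-p63E, dpy and Sgs1 sites had the highest folds, and none of their counting intervals reached down to 2.19, the highest fold outside repeats. The site with that fold, in CG2233, had an interval of 1.91 to 2.5, which overlapped that of Sgs1. The mucins Muc68E and Muc68Ca, glycoproteins of gut and other lining surfaces, had pileups of 277 and 266 over the same background of 142, with folds of 1.94 (1.72 to 2.18) and 1.86 (1.65 to 2.1). Both lie in single coding exons on 3L, with units of 48 and 68 codons. Mur29B, a mucin-related gene on 2L, differed from the rest, with a pileup of 203, a background of 155 and a fold of 1.31 (1.14 to 1.5), rank 193 of the 205. Its repeat covered 55.8% of the stretch, the lowest share of the 10.

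The other 4 repeated sites lay in very long exons of cytoskeletal proteins. Ank2, the neuronal ankyrin, had a site in an exon of 27690 bp (chr3L:7673351-7673873) with a pileup of 240, a background of 97.3 and a fold of 2.45 (2.15 to 2.78). Its unit of 152 codons was the longest, and neighbouring units were 98.3% identical. Msp300, a nesprin that links nuclei to the cytoskeleton in muscle, had a repeated site in an exon of 27510 bp (chr2L:5177115-5177412) with a pileup of 212, a background of 97.3 and a fold of 2.17 (1.89 to 2.48). In sls, which encodes the titin-like proteins of the sarcomere, both sites lay in coding exon 25 of 40 and had the same unit of 71 codons. The site at chr3L:2065559-2065983 had a pileup of 367, a background of 171 and a fold of 2.14 (1.93 to 2.37). The site at chr3L:2069335-2069705 had the highest pileup and the highest background of all coding sites, 682 in the JIG-GFP pool and 351 in the wild-type pool, and its fold was 1.94 (1.8 to 2.09). A high pileup at a repeat thus came with a high background here, but not at Ubi-p63E, dpy, Ank2 and Msp300, where background was at 97.3. That is the lowest value the caller allows, and the wild-type signal there may be lower. It held at 4 of the 10 repeated sites (40%) and at 16 of the 195 other coding sites (8.21%).

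The repeats of different genes had no words in common. Of 45 pairs of repeated sites, the pair in sls shared 16-base words (233, which were 76.1% of the words of 1 site and 40.03% of those of the other), and the remaining pairs shared none. Of the 32-base words in the 300 bp around a repeated summit, 57.6% (Mur29B) to 100% (Ank2) occurred again in the assembly. Over all coding sites this share was at least 50% at 11 (5.37%), against 1.85% of coding windows. The additional site was that of Arts (fold 1.36), with no repeat around its summit. How the authors' alignment placed reads that match several positions is not given in the sources used here, and its part in these folds was not tested. Numbers of repeat units that differ between the JIG-GFP and wild-type stocks cannot be told apart from binding.

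Across the 205 sites, fold and the repeated share had a Pearson r of 0.70 and a Spearman rho of 0.22, and without the repeated sites −0.08 and −0.04 (n = 195). Fold and GC content of 300 bp had r = −0.04 and rho = −0.13, and fold and length of the coding exon r = 0.27 and rho = 0.05. Without the 10 repeated sites the r with exon length was −0.03. The rho of largest size was that of fold with background, which is the denominator of fold. It was −0.40 over all sites (r = −0.07) and −0.43 without the repeated sites (r = −0.17). These are descriptions over sites that share both pools, and the authors' threshold sets the lowest fold at each background.

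Without repeats, the coding sites of highest fold were in CG2233, CG10764, east, CG9988 and Nuak. The CG2233 site (chrX:8035945-8036647) had a pileup of 216 against a background of 98.3 and a fold of 2.19 (1.91 to 2.5). The site in CG10764 had a fold of 2.08 (1.81 to 2.36), that in east 2.06 (1.83 to 2.32) and that in CG9988 2.06 (1.83 to 2.30). Nuak, a protein kinase related to AMPK, had a fold of 2.0 (1.77 to 2.26) at a summit 98.6% of the way along its coding sequence. The counting intervals of these 5 overlapped throughout. Below them were CG34002 (1.91), PGRP-LA (1.89), a peptidoglycan recognition protein, CG7627 and CG6293 (1.86 each), topi (1.83), kek4 (1.82), a transmembrane protein with leucine-rich repeats, nompB (1.81), needed for transport in cilia, and NimC1 (1.79), a phagocytosis receptor of blood cells.

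The longest coding sites were not those in repeats. At least 1000 bp were covered by 12 coding sites (5.85%) and by 68 of the other 1483 kept sites (4.59%), and none of the 12 was repeated. The longest, 3779 bp (chr3R:13032396-13036174), lay over ry, which encodes xanthine dehydrogenase and, like white, has served as an eye-colour marker of fly transgenes. It had a pileup of 281, a background of 167 and a fold of 1.68 (1.49 to 1.88). The other ry site ran over 1145 bp, with a pileup of 274, a background of 180 and a fold of 1.52 (1.35 to 1.71). Long sites also lay in topi (2752 bp, fold 1.83), a regulator of meiosis in the testis, Orc1 (2197 bp, 1.40), a subunit of the origin recognition complex, CG7627 (2028 bp, 1.86), CG6293 (2026 bp, 1.86) and PIG-G (2001 bp, 1.43), an enzyme of GPI anchor synthesis. The shorter of the 12 were in east (1827 bp), CG10764 (1608 bp), kek4 (1312 bp), nompB (1117 bp) and CG32432 (1022 bp). Among the 195 sites outside repeats, length and fold had r = 0.45 and rho = 0.20. Copies of these genes in the stocks are not given in the sources used here.

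The 205 sites lay in 184 genes, 2.09% of the 8802 protein-coding genes that hold any coding base meeting the rule, and 16 genes had at least 2 sites (37 sites). Msp300 had 5, over 60.7 kb of eligible coding sequence. Its repeated site had a fold of 2.17 and the other 4 had folds of 1.43, 1.44, 1.45 and 1.46, all with intervals that overlapped each other. Zip71B, a zinc transporter, had 3 sites in 1.57 kb, with folds of 1.45, 1.56 and 1.28 along the gene from 5′ to 3′, whose intervals overlapped as well. CG32432 had 3, with folds of 1.5, 1.39 and 1.38.

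**Figure D3:**
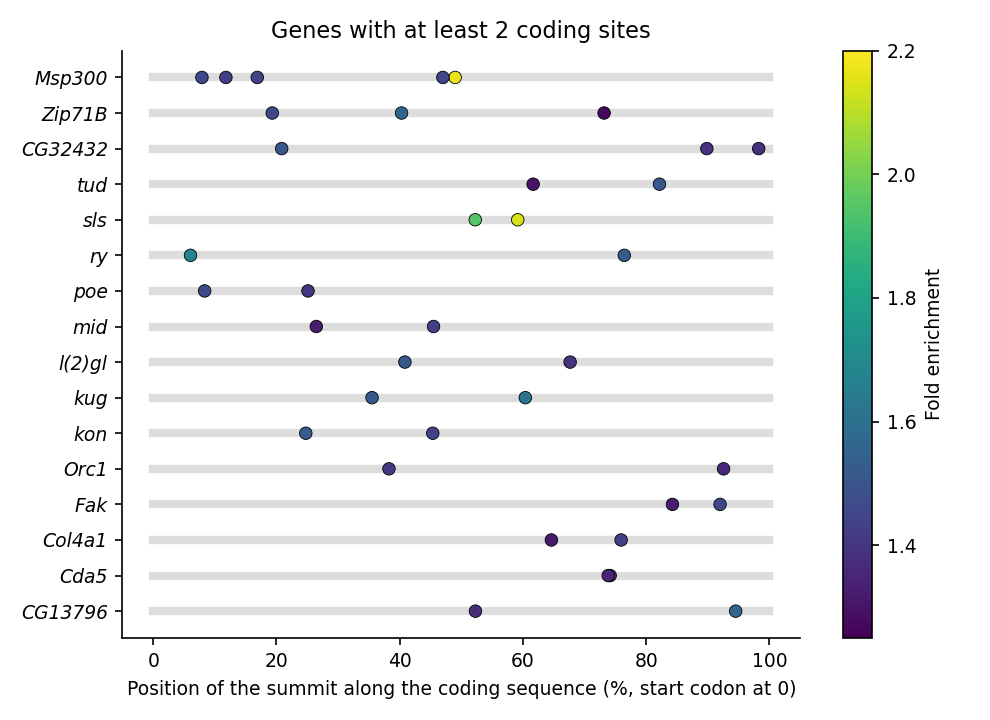
Position of the summit along the coding sequence (percent, start codon at 0, in the transcript of longest coding sequence that holds it) for the 16 genes with at least 2 coding sites, with fold enrichment as colour. Msp300 has 5 sites, Zip71B and CG32432 have 3 and the other genes 2, and the highest folds are those of Msp300 (2.17) and sls (2.14 and 1.94).

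The genes with 2 sites had folds between 1.30 and 1.68, apart from sls. kon, a transmembrane protein by which muscles reach tendon cells, had folds of 1.52 and 1.44. kug, an atypical cadherin of epithelia, had 1.51 and 1.62, and Fak, the focal adhesion kinase, 1.32 and 1.45. Col4a1, a collagen IV chain of basement membranes, had 1.32 (1.16 to 1.49) and 1.43 (1.26 to 1.61), with pileups of 243 and 255 over backgrounds of 184 and 178, and GC contents of 61.7% and 59.7%. Its collagen repeat varies in sequence, and neither site was repeated by the measure above. Cda5, a chitin deacetylase, had 1.41 and 1.35. The other genes with 2 sites were l(2)gl, a regulator of cell polarity (1.51 and 1.39), mid, a T-box factor (1.33 and 1.43), tud, a component of germ plasm (1.30 and 1.51), poe (1.46 and 1.40), CG13796 (1.37 and 1.56), Orc1 (1.40 and 1.36), ry and sls. Apart from Msp300, the intervals of the sites of 1 gene overlapped in every case.

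Another site of the list lay within 1000 bp of 34 coding sites (16.6%, Wilson 95% interval 12.1% to 22.3%) and of 194 of the other 1483 kept sites (13.1%). Within 5000 bp it did for 76 coding sites (37.1%, 30.8% to 43.9%) and 479 others (32.3%). The shares were close at both distances. When sites with gaps of at most 5000 bp were chained, the coding site of wor, a zinc finger factor of neural precursors (fold 1.33), was 1 of 16 sites over 27035 bp of 2L (chr2L:15418927-15445961), whose folds ran from 1.33 to 2.29. PIG-G, Orc1 and Drat held 4 coding sites within 6485 bp of 2R, with folds of 1.36 to 1.6. Nuak, CG6293 and Bruce held 3 coding sites and 1 other within 9025 bp of 3R, with folds of 1.40 to 2.1. The prolyl 4-hydroxylase genes PH4alphaEFB and PH4alphaNE1, whose products modify collagen, held 2 of 5 sites within 15199 bp of 3R, with coding folds of 1.42 and 1.38.

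The arms differed in the number of coding sites per Mb of eligible coding sequence. 2L had 65 sites (25.6 per Mb), 3L 52 (19.3), 3R 49 (15.0), 2R 36 (13.5) and X 3 (1.18), with 14.9 over all. X thus held 18.6% of the eligible bases and 1.46% of the coding sites. The X sites were CG2233 (fold 2.19), east (2.06) and CG3588 (1.52). In the order of the whole list, east and CG2233 were entries 1854 and 1862, so few sites of any class lay between them. The other kept sites were not counted by arm, so low numbers on X are not shown to be particular to coding sites. The share of males among the JIG-GFP and the wild-type larvae, which sets the number of X copies, is not given in the sources used here, and its part was not tested.

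Exon position differed little from that of coding windows. The last coding exon held 52 sites (25.4%, Wilson 95% interval 19.9% to 31.7%) and 24.9% of windows, internal exons 134 (65.4%) and 62.4%, the first coding exon 10 (4.88%) and 7.40%, and single coding exons 9 (4.39%) and 5.30%. The median summit lay 62.6% of the way along the coding sequence, against 58.6% for windows, and 52.1% along its exon, against 54.1%. Summits fell on the first, second and last codon positions at 36.1%, 35.6% and 28.3% of sites and at 33.5%, 33.6% and 32.9% of windows. The genes had a median of 7 coding exons at sites and 6 at windows. Their median lengths were lower at sites. Coding length was 2421 bp (95% interval of the median 2004 to 2829) against 3024 bp, and gene length 6688 bp (5695 to 8168) against 8447 bp. Mean coding length went the other way, with 5196 bp at sites and 4960 bp in windows, and mean gene length was 17392 bp and 19868 bp.

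Exon length did differ. The coding exon that held the summit had a median length of 493 bp (95% interval of the median 378 to 606), against 887 bp for windows. The site median was at the 32.1 percentile of the windows. Mean exon length went the other way, with 1552 bp at sites and 1480 bp in windows. Exons under 500 bp held 104 sites (50.7%, 43.9% to 57.5%) and 32.5% of windows. Exons of at least 2000 bp held 31 sites (15.1%, 10.9% to 20.7%) and 20.7% of windows, and these included all repeated sites but Mur29B. Median fold varied little with exon length, between 1.43 and 1.46 over 5 classes.

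Over all exon lengths, the median GC content of coding sites was below that of coding windows, with a wider gap in 1000 bp around the summit than in 100 bp. In the 300 bp around the summit the median GC content was 49.0% (95% interval of the median 48.0% to 49.7%, quartiles 46.0% and 52.0%) and in coding windows 52.0% (quartiles 47.3% and 56.3%). In 100 bp the medians were 52.0% and 53.0%, and in 1000 bp 45.0% (44.1% to 45.7%) and 49.9%, so that the median site lay at percentile 39.7 of the windows for 100 bp, 31.6 for 300 bp and 19.9 for 1000 bp. Extreme values were rarer at sites. A GC content of at least 60% was found at 5 sites (2.44%, 1.05% to 5.58%) and in 9.61% of windows, and one under 40% at 0 of 205 sites, with an upper Wilson limit of 1.84%, and in 4.995% of windows. The 5 were ry, CG3588, Exn, Col4a1 and CG15236. By codon position, median GC was 54.0%, 39.7% and 59.6% at sites and 56.0%, 41.0% and 64.0% in windows, the widest gap being at the last position.

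**Figure D4:**
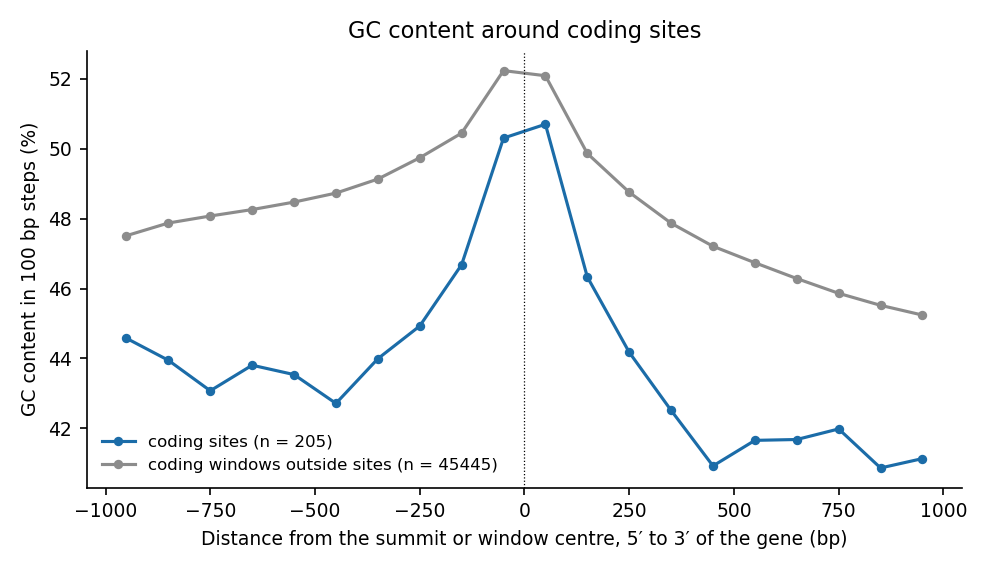
Mean GC content in steps of 100 bp around the summits of the 205 coding sites (blue) and the centres of 45445 coding windows outside sites (grey), in the direction of transcription. At sites it is 50.3% and 50.7% in the steps on either side of the summit, 44.6% at 950 bp upstream and 41.1% at 950 bp downstream, and in windows it is 52.2% and 52.1%, 47.5% and 45.2%.

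Around the summit, mean GC content was 50.7% in the first 100 bp downstream and 40.9% at 450 bp downstream, against 52.1% and 47.2% in windows. The difference between the GC of 100 bp and of 1000 bp had a median of 6.6 percentage points at sites and 3.0 in windows. Because summits must lie on a coding base, both profiles peak at 0, and the comparison is of their heights and slopes.

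The gap depended on exon length. In exons under 250 bp the median GC of 300 bp was 48.3% at 55 sites, higher than the 46.3% of windows, and that of the central 100 bp was 54.0% at sites and 50% in windows. In the longer classes the sites were lower, with 50.3% against 51.7% (from 250 to under 500 bp), 49.3% against 53.3% (from 500 to under 1000 bp), 49.0% against 54.0% (from 1000 to under 2000 bp) and 48.0% against 52.3% (2000 bp or more). In 1000 bp the sites were lower in all 5 classes, with 42.6% against 45.0% in the shortest exons and 46.4% against 51.9% in the longest. In the central 100 bp the medians were 54.0% at sites and 54.0% in windows in exons from 250 to under 500 bp, and sites were lower in the longer classes, with 50% against 55.0%, 48.0% against 54.0% and 46.0% against 53.0%. The order of gaps by window size seen over all sites thus did not hold in exons of at least 500 bp, where the gap in 100 bp was as wide as that in 1000 bp or wider. Other kept sites, which lie mostly outside coding sequence, had medians of 47.0% in 300 bp and 42.6% in 1000 bp. The 220 sites with a coding summit within 1000 bp of a TSS had 49.3% in 300 bp and 44.55% in 1000 bp. These medians lay close to the 49.0% and 45.0% of the promoter-distal coding sites, so this GC content was not particular to them. Sequencing depth depends on base composition in many libraries, and its part was not tested.

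**Figure D5:**
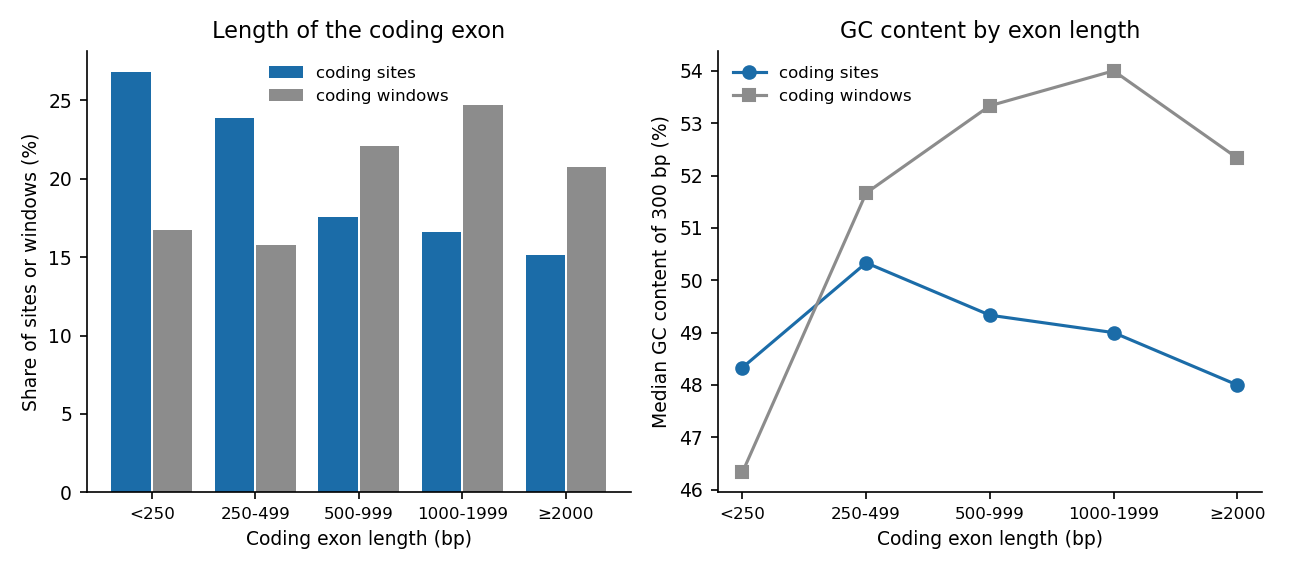
Left, share of the 205 coding sites (blue) and of 45445 coding windows (grey) by length of the coding exon. Right, median GC content of 300 bp in the same classes, on an axis that does not start at 0. Exons under 500 bp hold 50.7% of sites and 32.5% of windows, and GC is higher at sites in exons under 250 bp (48.3% against 46.3%) and lower in the 4 longer classes.

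Of 6 short words searched on both strands, 5 had a share at coding sites close to that of coding windows. CCACGTC, a word with the ACGT core, was in 7 of 205 windows of 300 bp at sites (3.41%, Wilson 95% interval 1.66% to 6.88%) and in 4.24% of coding windows. The 7 were kon, CCAP-R, Orc1, Su(var)2-10, PH4alphaNE1, Lpin and Mur29B. Its shorter form CACGTC, which CCACGTC contains, was in 8.29% and 9.62%, TGACG in 35.6% and 33.3%, and GAGAG in 33.2% and 32.9%. TGACGTCA, the palindromic cyclic AMP response element, which contains TGACG, was in 0 of 205 and in 0.156% of windows. The sixth word, CAGCAGCAG, which is common in glutamine-rich coding sequence, was in 4 sites (1.95%, 0.761% to 4.91%), those of east, topi, wwk and knk, and in 7.72% of windows. That share was lower at sites, and no test was made of it.

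By gene group, the lists with most sites were of long structural genes, and part of their sites lay in the repeats. Each list is read against the 2.09% of eligible genes and the 14.9 sites per Mb over all genes. Of 29 eligible sarcomere and muscle genes, 3 held 9 sites (Msp300, sls and kon), which is 10.3% of the genes and 45.6 sites per Mb, or 30.4 without the repeated sites. Of 38 mucin and chitin-binding genes, 4 held 5 sites (Muc68E, Muc68Ca, Mur29B and Cda5), which is 10.5% and 34.2 per Mb, or 13.7 without the repeated sites. Of 15 genes of the extracellular matrix, 2 held 3 sites (dpy and Col4a1), which is 13.3% and 19.7 per Mb, or 13.1 without the repeat of dpy. Of 10 salivary glue and ecdysone-induced secreted genes 1 held a site, Sgs1, which is 10% and 94.6 per Mb, or 0 without that repeated site. These groups rest on 1 to 4 genes each.

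Other groups had sites in 1 or 2 genes each, or in none. Of 70 genes in the list of cadherins and the Dscam family, 2 held sites (kug, and Dscam1 with a fold of 1.32), 10.9 per Mb. Of 52 chromatin and silencing genes, 1 held a site, Su(var)2-10, a SUMO ligase (1.38), 4.82 per Mb. Of 50 cuticle protein genes 1 did (Cpr62Bb, 1.34), 28.4 per Mb, and of 139 chemoreceptor genes 1 (Gr28a, 1.58), 13.7 per Mb. Of 25 protease and digestive enzyme genes 1 did (Lip4, 1.53), 51.3 per Mb. That rate was above the one of the muscle list (45.6), but it rests on 1 site in 19.5 kb. In 10 of 19 lists no gene held a coding site. These were homeodomain factors (0 of 47 genes), ecdysone response genes (0 of 23), signalling pathways (0 of 43), nuclear genes of mitochondrial proteins (0 of 54), genes of the secretory pathway (0 of 44), heat shock proteins (0 of 18), Osiris proteins (0 of 21), ribosomal proteins (0 of 14) and histones (0 of 2). With CG16953, the 1 eligible gene of the list of Jig and paralogs, these 10 lists hold 267 genes, which have 344 kb of the 13.7 Mb of eligible coding sequence. Each list had between 0.521 kb (histones) and 98.5 kb (signalling pathways). Beside 14.9 sites per Mb over all genes, 0 sites in any single list thus says little. Of 20 genes looked up by name, which were Jig, its paralogs, CrebA, further genes from the study and white, but not every gene the study names, 11 have an eligible coding base and 0 held a coding site. CG4297, a further paralog outside that list, was 1 of the 11.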

How the data were processed

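Sequencing of DNA precipitated with an anti-GFP antibody was analysed from 3 JIG-GFP and 3 wild-type samples, grouped by their labels. The authors mapped paired-end reads to dm6 in Galaxy, with an aligner and read filters not given in the sources used here, and called sites with MACS2 version 2.1.1.20160309 on pooled samples. According to the header of the deposited list, at most 1 fragment was kept per position (42358424 of 42962439 JIG-GFP and 41819151 of 42368878 wild-type fragments), the fragment size was 262 bp, the effective genome size 120000000 and the q cutoff 0.05, with local background over 1000 and 10000 bp. The pileup in the authors' list is a signal that counts fragments covering the summit. The call was set to scale the larger pool to the smaller. However, 0 coding sites had a pileup that was not a whole number, so these pileups read as unscaled counts. The authors' fold enrichment is the ratio of pileup to local background, each with 1 added. The deposited −log10 q-values are Poisson p-values after Benjamini-Hochberg adjustment. All were used as deposited.

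Background was recovered from pileup and fold. Summits were placed on genes of Ensembl release 115 for BDGP6, and sequence was read from the RefSeq genome of that assembly. Summits on 2L beyond 22 Mb, 3L beyond 23 Mb, 3R before 4.2 Mb and X beyond 21 Mb were left out. Exon position was taken in the transcript of longest coding sequence that holds the summit. Coding windows are all non-overlapping 300 bp windows whose centre meets the rule and lies in no site (45445 windows on 13.7 Mb). Intervals of medians are from order statistics and of shares Wilson intervals, at 95%, and intervals of fold are exact Poisson intervals of the pileup at a fixed background. They cover counting error only. Sites in the same gene or close together are not independent, so the intervals of shares and medians serve as description. No test between samples could be made, and none was made over sites. Functions were tested on simulated data with Python 3.11.15, numpy 2.4.6, scipy 1.17.1, pandas 2.3.3 and matplotlib 3.10.9.

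The members, gene lists and tests were chosen with earlier results of these data known. Genes named are those of the 10 sites of highest fold, the 10 of lowest q and the 5 of highest pileup, those with at least 2 sites, up to 4 per list, those of a list of genes from the study, white, and those beside the 1000 bp limit. Other genes (further sites of high fold, long sites, chained sites, X sites and holders of a word, of GC of at least 60% or of 32-base words found again) were named after their values were seen. Alternatives were other distances, transcripts, thresholds, repeats and windows.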

Additional observations from a re-analysis of the deposited data

How the results depend on the processing

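No paired analysis was possible because the pooled call holds no value per sample, and for the same reason no replicate could be left out. Of 57 alternative values, 42 stayed within the spread or within 1.5 times of the value reported and 15 moved. The number of coding sites and of genes was 317 and 291 with summits more than 500 bp from a TSS, 112 and 95 beyond 2000 bp, 43 and 41 at a q below 1e-05, 72 and 69 at a fold of at least 1.5, and 101 and 97 without sites that hold soft-masked bases. Each of these settings changes the number of sites by its own construction. The median fold was 1.79 at a q below 1e-05 and 1.58 at a fold of at least 1.5. The share in the last coding exon, 25.4% as reported, was 17.0% beyond 2000 bp from a TSS, and the cause was not tested. Median GC content was 52.0% in 100 bp and 45.0% in 1000 bp, as the report gives beside the windows. The measure of repeats was chosen after seeing the data, and so were its alternatives (words of 12 and 24 bases, stretches of 500 and 2000 bp, and repeated sites left out). The alternatives gave 9 to 10 repeated sites, and without the repeated sites a median fold of 1.43 and GC of 49.0%. Depth limits single sites, since at a background of 115.5 fragments counting gives an SD of 9.31% and the lower quartile of fold is 1.36. The list holds called sites and no signal between them, so coding sequence below the authors' threshold was not analysed here.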
